A study of Mus musculus with 2 samples.

Results

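The S100 genes described here belong to a family of mostly calcium-binding small proteins and were grouped as those of epithelium, stroma and fat. They are S100a1, S100a4, S100a6, S100a10, S100a11, S100a13, S100a14, S100a16 and S100b. They were listed by symbol and not by a limit on their signals, but with earlier results of these data known. The S100 genes of neutrophils were kept apart. Of the 9 genes, 8 were read by a probe set, a group of short oligonucleotides for part of a transcript, that the platform annotation assigns to a single gene, out of 12393 genes read in this way on the array. The only probe set for S100a11 also names 2 pseudogenes of similar sequence and was not read. The 8 genes had 11 probe sets, with a pair each for S100a1, S100a10 and S100b.

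Signals came from 2 arrays of mammary tumor RNA from female FVB wild-type mice. Both groups, aged 5 weeks at the start, received 15 mg medroxyprogesterone acetate, a progestin, and then 4 weekly doses of 1 mg DMBA, a carcinogen. The control group stayed on standard chow, and the other group was fed the same chow with 0.1% GW9662, an irreversible PPARγ antagonist, from the day after the last DMBA dose. RNA from 5 mice per group was pooled on 1 array each, so no value has a replicate and no difference was tested. Pairs of signals below give the control array first and the GW9662 array second.

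Most S100 proteins bind calcium through a pair of EF-hand loops and usually work as dimers. They change shape on binding calcium so that they can dock onto other proteins. Annexins, cytoskeletal motors and p53 are among their known partners. Some family members are also released from cells and act on receptors such as RAGE, which is encoded by Ager. In breast tissue S100a14 and S100a16 belong mainly to epithelium, S100a4 to stromal cells and motile tumor cells, and S100b to fat and nerve sheath.

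The S100 genes described here that reached a signal of 300 differed by at most 1.51-fold between the 2 arrays. S100a4 and S100a10 had higher signals in GW9662 tumors, 1.51-fold and 1.28-fold, and the 5 others that reached a signal of 300 on at least 1 array, S100a1, S100a6, S100a13, S100a14 and S100a16, were within 1.2-fold of level. S100b was below a signal of 100 on both arrays and lower in GW9662 tumors at both probe sets. Of the 7 genes at 300 or more, 0 were at least 2-fold lower and 0 at least 2-fold higher, where the same limits took in 4.68% and 1.02% of the 6053 genes that reached 300. At 3-fold the counts were again 0 and 0, against 2.68% and 0.215% of those genes. With 7 genes, counts of 0 are near these background shares and are no result about the S100 genes.

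**Figure D1:**
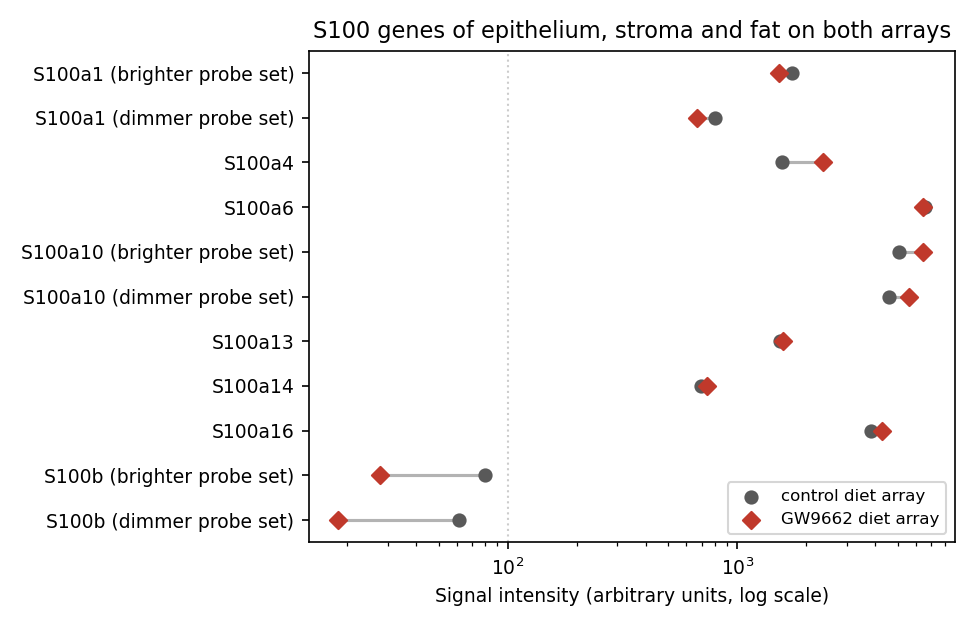
Signal of each of the 11 S100 probe sets on a log axis, with the control diet array as gray circles and the GW9662 diet array as red diamonds, and a dotted line at a signal of 100. The widest gaps between symbols are those of S100a4 (1572.6 and 2367.6) and S100b, and both S100b probe sets lie left of the dotted line.

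S100a4, also called metastasin or fibroblast-specific protein, binds nonmuscle myosin and is abundant in fibroblasts, some leukocytes and migrating cells. It had signals of 1572.6 and 2367.6, a log2 ratio of GW9662 over control of 0.59. This was the largest ratio among the 7 genes, and 15.8% of the 6053 genes differed by more in either direction. Log2 ratios of different probe sets for the same gene had an SD of 0.36 over 2639 genes, and only S100a4 of the 7 exceeded that spread, as did 35.9% of all genes at 300 or more. That SD describes the reading of a transcript and holds no variation between mice. In pooled tissue, more cells of a type and more RNA per cell cannot be told apart. Fibroblast markers mostly had lower signals. Of 17 fibroblast markers, 13 were lower and 4 were higher, where 54.8% of all genes at 300 or more were higher. Their median log2 ratio was -0.12, with summed signals of 62306.1 and 49269.2. Dpt, a dermatopontin gene of matrix fibroblasts, had signals of 2522.2 and 513.1, and the collagen gene Col3a1 had 9709.2 and 8005.3. Among the 4 higher ones was another collagen gene, Col1a1 (677.6 and 1120.0). Macrophage markers were split, with 7 lower and 7 higher, a median of 0.03 and summed signals of 28124.5 and 26614.7. Lyz2, the macrophage lysozyme, was lower (6942.8 and 5694.5), and C1qa was higher (3141.8 and 3441.1). None of the fibroblast or macrophage markers was at 0 on either array, and their part in the S100a4 signal was not tested.

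S100a4 lies on chromosome 3 beside S100a6, with S100a5 in between. S100a6, or calcyclin, is found in epithelium and fibroblasts and binds the ubiquitin ligase adaptor Cacybp. Its signals were 6598.2 and 6462.3, a log2 ratio of -0.03, beside 0.59 for its close neighbor S100a4. The stretches before their start sites are shown because S100a4 had the largest ratio of the genes at 300 or more and S100a6 the one nearest to level. Each is the 250 bases before the start, 5′ to 3′, from RefSeq on GRCm38.p6, both on the plus strand, at chr3:90603520-90603769 for S100a4 and chr3:90612644-90612893 for S100a6. Capitals mark TATAAA, the core of a TATA box, and AGGTCA, the half-site that nuclear receptors recognize, the dimer of PPARγ and RXR among them when it is repeated, searched on both strands.
S100a4: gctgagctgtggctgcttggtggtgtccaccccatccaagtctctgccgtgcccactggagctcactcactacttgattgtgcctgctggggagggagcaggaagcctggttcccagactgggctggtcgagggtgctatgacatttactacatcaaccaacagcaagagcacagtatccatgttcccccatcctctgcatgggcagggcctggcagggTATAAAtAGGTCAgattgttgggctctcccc
S100a6: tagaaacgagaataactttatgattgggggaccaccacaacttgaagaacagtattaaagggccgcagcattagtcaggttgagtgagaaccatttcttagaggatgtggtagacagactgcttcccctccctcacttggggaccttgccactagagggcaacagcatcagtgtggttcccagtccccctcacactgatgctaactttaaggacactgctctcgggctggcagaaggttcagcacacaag
The S100a4 stretch holds both motifs on the plus strand, TATAAA ending 25 bases and AGGTCA ending 18 bases before the start, without overlap, and the S100a6 stretch holds neither. TATAAA was present in 12.4% and AGGTCA in 14% of 32851 RefSeq promoter stretches of this length. Over the 7 S100 genes listed here that had a promoter entry, 8 stretches in all, 1 held TATAAA and 3 held AGGTCA. The others with AGGTCA were S100a11 and an S100a16 start, both on the minus strand. These matches describe the letters and not binding.

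S100a10, or p11, differs from most of its relatives in that its EF-hands no longer bind calcium. It forms a stable complex with annexin A2 at the plasma membrane, and the complex also binds plasminogen. The brighter probe set had 5053.8 and 6454.1, a log2 ratio of 0.35. The dimmer probe set had 4589.4 and 5594.8, a log2 ratio of 0.29. Both readings were higher on the GW9662 array and differed from each other by 0.07. The ratio was just under the spread between probe sets, and 36.8% of genes at 300 or more differed by more. Anxa2, which encodes annexin A2, went the other way by a small margin, with 5946.6 and 5368.7 and a log2 ratio of -0.15.

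**Figure D2:**
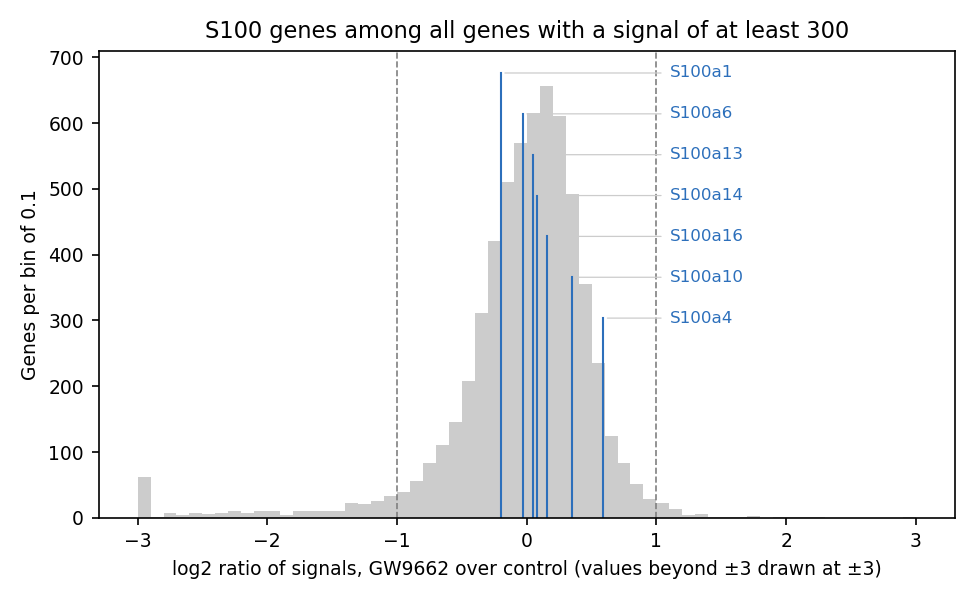
Histogram of the log2 ratio of GW9662 over control signals for the 6053 genes that reached a signal of 300, in bins of 0.1, with blue lines at the 7 S100 genes and dashed lines at 2-fold. The height of a blue line only serves its label. All 7 lie between -0.20 and 0.59, inside the dashed lines.

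S100a14 and S100a16, a pair of epithelial members next to each other on chromosome 3, were close to level. S100a14 had signals of 697.8 and 738.5, a log2 ratio of 0.08. S100a16 had 3831.9 and 4274.6, a log2 ratio of 0.16. Both were slightly higher on the GW9662 array, by less than the spread between probe sets. Luminal epithelial markers were higher in 11 of 17 cases, where 54.8% of all genes at 300 or more were higher. The median of their log2 ratios was 0.17, beside 0.05 for all genes at 300 or more. A count this near the background share is no result about luminal cells. Krt8, a simple epithelial keratin, counted as higher but was near level (9496.4 and 9664.7, a log2 ratio of 0.03). Elf5, a factor of the alveolar lineage, was lower (4138.4 and 2040.0). The simple keratin genes Krt18 (10018.0 and 9025.3) and Krt19 (8108.7 and 8018.0) were near level, and Krt7 was slightly higher (3203.7 and 3944.9).

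S100a13 takes part in the release of Fgf1 and interleukin 1α, which leave the cell without a signal peptide. Its signals were 1532.5 and 1582.8, a log2 ratio of 0.05. Of its cargoes, Fgf1 had 116.9 and 161.6, and Il1a was below 100 on both arrays (18.3 and 10.2). Synaptotagmin 1 (Syt1), another part of that release complex, had 1.3 and 9.6, in the range of olfactory receptor probe sets, which did not exceed 25.8.

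S100a1, the member of heart and skeletal muscle that binds the calcium release channel, was the lowest of the 7 genes in ratio. It had 1738.0 and 1515.8 at the brighter probe set, a log2 ratio of -0.20, and 796.3 and 665.7 at the dimmer probe set, a log2 ratio of -0.26. Both probe sets were lower on the GW9662 array by less than the spread between probe sets of a gene. Skeletal muscle markers were lower by much more. All 15 with a mean signal of at least 100 were lower, where 54.8% of all genes at 300 or more were higher. Their median log2 ratio was -3.17, and the sum over all 20 went from 14359.6 to 1792.1. Skeletal actin (Acta1) had 2488.4 and 284.8 and the heavy myosin Myh1 had 958.3 and 33.4. None was at 0 on either array. Ryr1, which encodes the skeletal release channel that S100a1 binds, was below 100 on both arrays (71.6 and 24.2). The part of muscle in the S100a1 signal was not tested. S100a1 and S100a13 are transcribed away from each other, with RefSeq starts 105 bases apart. Their log2 ratios were -0.20 and 0.05.

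S100b is abundant in glia and Schwann cells and is also made and released by fat cells. Its signals were 80 and 27.8 at the brighter probe set, and 61.3 and 18.3 at the other. Both readings were lower in GW9662 tumors, with log2 ratios of -1.52 and -1.74, but no fold was taken because all 4 signals were below 100. The control signals were above the highest olfactory receptor signal of 25.2 on that array, and the GW9662 signals of 27.8 and 18.3 lay just above and within the range reaching 25.8. Adipocyte markers were lower in the same direction and at far higher signals. All 16 with a reading were at least 3-fold lower, against 2.68% of all genes at 300 or more. That marker list was written with earlier results of these data known. Its median log2 ratio was -4.08, with a summed signal of 73734.8 and 8671.8. The fatty acid binding protein Fabp4 had 13670.0 and 3097.0, and leptin (Lep) had 979.8 and 23.0. Schwann cell markers were mixed. Of 7 with a mean signal of at least 100, 4 were lower and 3 higher, with a median of -0.04. The myelin genes Mbp (1863.0 and 362.8) and Pmp22 (2220.7 and 928.0) were lower, and Egr2, a myelination factor, was higher (557.8 and 854.0). Cnp, the brightest gene on this list, was near level (2341.7 and 2278.7). The summed Schwann signal was 8320.4 and 6026.1 over 11 genes, and the glial filament gene Gfap was below 100 on both arrays (9.0 and 27.3). No adipocyte or Schwann marker was at 0. The part of fat or nerve in the S100b signal was not tested.

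**Figure D3:**
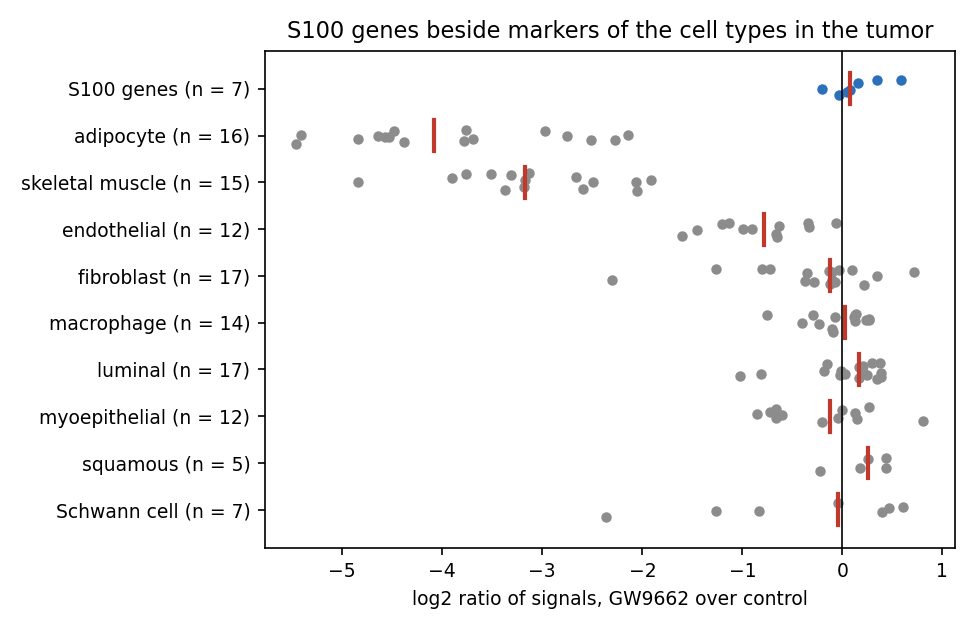
Log2 ratio of GW9662 over control for each gene with a mean signal of at least 100, with the S100 genes in blue, markers of other cell types in gray and a red bar at the median of each row. The 7 S100 genes have a median of 0.08, while adipocyte and skeletal muscle markers lie at medians of -4.08 and -3.17.

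The 7 S100 genes at 300 or more had a median log2 ratio of 0.08, with 5 higher and 2 lower. Over all 6053 genes at 300 or more the median was 0.05 and 54.8% were higher. The median absolute log2 ratio was 0.16 for the S100 genes and 0.27 for all these genes. Of the S100 genes, 5 of 7 were within 1.2-fold, against 49.6% of all. These are descriptions of 1 pair of pools.

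RefSeq places 15 S100 genes on chromosome 3, and 8 of the 9 genes described here are among them, with S100b on chromosome 10. Read in order along the chromosome, S100a1, S100a13, S100a14 and S100a16 come first and lay between -0.20 and 0.16. S100a4 and S100a6 follow, at 0.59 and -0.03. Between them S100a5 was below 100 on both arrays (25.7 and 10.2), as was S100a3 (25.1 and 34.7) between S100a16 and S100a4. The neutrophil genes S100a8 and S100a9 come next. S100a8 had 300.7 and 234.0 and S100a9 had 162.3 and 174.4, log2 ratios of -0.36 and 0.10. S100a10 closes the row at 0.35. Of the genes above 100, S100a13, S100a14, S100a16, S100a4, S100a9 and S100a10 had positive ratios, and S100a1, S100a6 and S100a8 had negative ones. Those of S100a6, S100a13 and S100a14 were close to level. Of all genes at 300 or more, 54.8% were higher, so these signs are no result about the cluster.

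**Figure D4:**
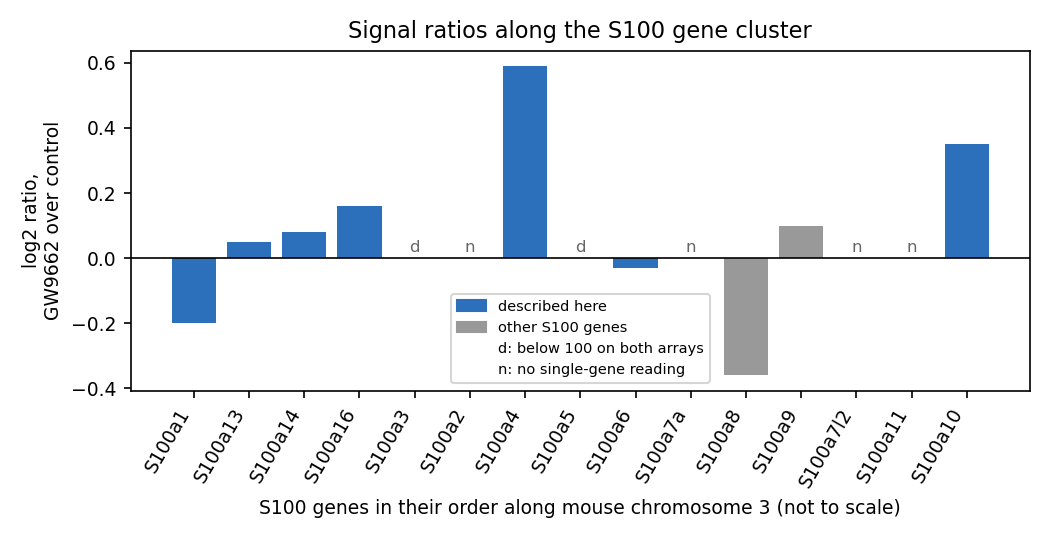
Log2 ratio of GW9662 over control for the S100 genes in their order along mouse chromosome 3, with the genes described here in blue and other S100 genes in gray, d for genes below 100 on both arrays and n for genes with no single-gene reading. S100a4 at 0.59 and S100a10 at 0.35 are the tallest bars above zero, and S100a8 at -0.36 is the deepest below.

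Partners and targets of S100 proteins were read from a list of their own. Of 30 listed, 27 had a reading and 17 reached 300. Of the 17, 12 were lower and 5 higher, where 54.8% of all genes at 300 or more were higher. The 17 had a median log2 ratio of -0.15 and a range from -0.41 to 0.44. Of these 17, 13 were within 1.2-fold, beside 49.6% of all genes at 300 or more. A count of 0 differed by 2-fold, which is near the background of 4.68% lower and 1.02% higher. Probe sets of Iqgap1, a scaffold of the cell cortex, did not read alike. It was counted at 2344.8 and 2532.7, a log2 ratio of 0.11, but other probe sets of similar signal were lower, with 2657.0 and 1792.3 (-0.57) and with 2258.1 and 1634.7 (-0.47). The annexins, which bridge S100 proteins and membrane phospholipids, all had lower signals: 6 of 6 with a reading, between -0.35 and -0.15. These 6 are part of the 12 lower partners. Anxa1, the partner of S100a11, had 7181.5 and 6171.0. Anxa7 had 1536.9 and 1204.4, the largest difference of the annexins. Each annexin ratio was smaller than the spread between probe sets. Dim second probe sets did not all follow: Anxa2 had 38.4 and 119.4 at one of them.

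Ahnak, a giant scaffold that binds the S100a10 and annexin A2 complex, had 3808.1 and 2859.4, a log2 ratio of -0.41. Its dimmer probe sets at 277.9 and 195.3 and at 131.7 and 77.9 were lower as well. Myh9, the nonmuscle myosin bound by S100a4, had 5461.2 and 5885.8, a log2 ratio of 0.11, and its other probe sets ranged from -0.16 to 0.33. Cacybp, the partner of S100a6, had 2356.6 and 2035.1, and Sugt1, which shares a domain with Cacybp, had 1919.5 and 2506.9. A dimmer Sugt1 probe set did not follow, with 156.5 and 148 and a log2 ratio of -0.08. Marcks, a membrane and actin regulator, had the highest ratio of the partners at 300 or more, reading 4187.5 and 5667.6 where it was brightest but 1828.5 and 1593.2 at a dimmer probe set. Of the plasminogen system around S100a10, the tissue activator Plat had 518.8 and 582.9, the urokinase Plau 263.6 and 127.6, and its receptor Plaur 215.2 and 197.7. Only Plat reached 300. The receptor gene Ager was below 100 on both arrays (3.6 and 42.8).

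**Figure D5:**
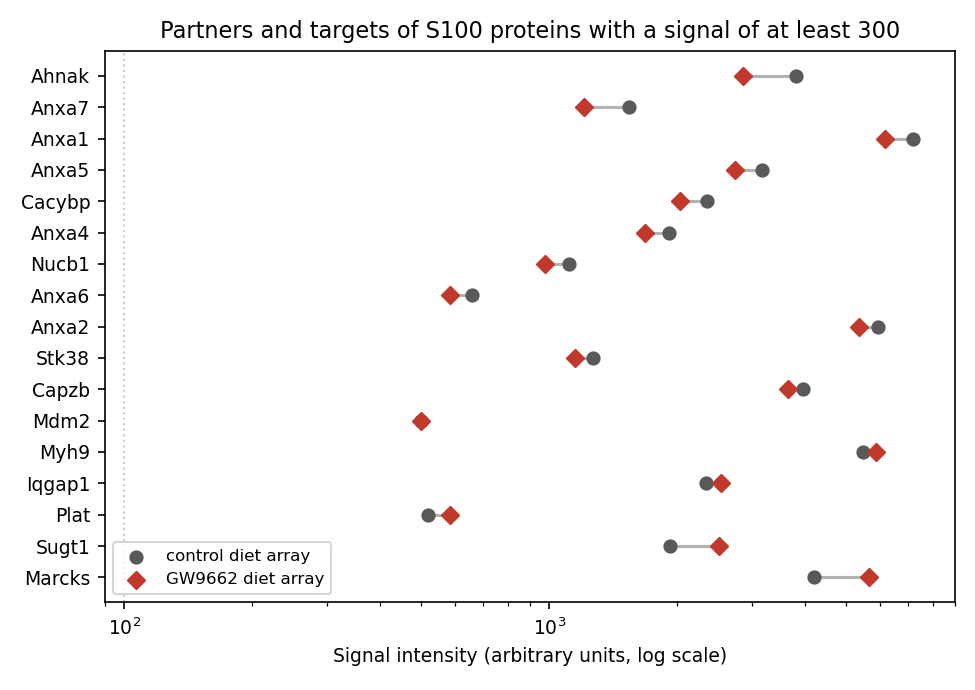
Signals of the 17 partners and targets of S100 proteins that reached a signal of 300, on a log axis, ordered by ratio, with the control diet array as gray circles, the GW9662 diet array as red diamonds and a dotted line at a signal of 100. Ahnak at the top is lower by a log2 ratio of -0.41 and Marcks at the bottom is higher by 0.44.

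Other small EF-hand proteins that sense or buffer calcium included muscle genes with far lower signals. Of 16 with a mean signal of at least 100, 12 were lower and 4 higher, where 54.8% of all genes at 300 or more were higher. The log2 ratios of the 16 ran from -3.51 to 0.60, with a median of -0.23. Among the 14 that reached 300, 3 were at least 3-fold lower and 0 were 2-fold higher, beside 2.68% and 1.02% of all genes at 300 or more. These 3 were troponin C of fast muscle (Tnnc2, 1620.5 and 142.0), parvalbumin (Pvalb, 506.9 and 56.3), a calcium buffer of fast muscle, and Calml3 (314.3 and 94.7), a calmodulin-like protein of epithelium. Tnnc2 and Pvalb are also on the list of muscle markers. The calpain subunit Capns1 had 3201.0 and 2725.1 and the secretory pathway protein Calu had 3232.3 and 2927.6, log2 ratios of -0.23 and -0.14. Pdcd6 was higher, with 2419.3 and 2671.9 and a log2 ratio of 0.14. S100pbp, named for its binding of the family member S100P and not an S100 gene itself, had 342.6 and 586.0, 1.71-fold higher.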

How the data were processed

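Tumor RNA pooled from 5 mice per diet was hybridized to 1 Affymetrix mouse 430A 2.0 array each. The authors deposited linear signal intensities for 22690 probe sets, generated with GeneChip Operating Software 1.1. The signal algorithm and scaling are not stated in the paper or labels. Both arrays had a 2% trimmed mean of 500.0 and were used as deposited, with zeros read as 0.1 on the log2 scale.

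Genes were named from the platform annotation, updated through RefSeq (GRCm38.p6), for the 20380 probe sets with 1 gene. The probe set of highest mean signal stood for a gene. The limits were a signal of 300 on either array with 3-fold, from the paper's methods, or 2-fold. No fold was taken where both signals were below 100.

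Members, lists and limits were chosen with earlier results of these data known. The text names all S100 genes with a reading and draws other names from partners at 300 or more and, of each other list, the 3 genes of highest signal and 3 of largest ratio, not all of which are named. Krt7, Fgf1, Il1a, Syt1, Ryr1, Ager, Plau, Plaur and Gfap were named for their role after their values were seen, and Col1a1 for its direction. Genes of similar pattern were not sought, since 2 arrays give 1 ratio per gene. The planned protein comparison was not made. Counting was tested on simulated data whose planted changes were all larger than 2-fold. That test says nothing about differences as small as those of the S100 genes at 300 or more. Software was matplotlib 3.10.9, pandas 2.3.3, numpy 2.4.6 and Python 3.11.15.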

Additional observations from a re-analysis of the deposited data

How the results depend on the processing

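The ratios of the 7 S100 genes at a signal of 300 or more kept their sign under all 7 alternatives. These were quantile normalization, centring on the median, setting signals below 100 to 100 and adding 50. The others were 2 medians over probe sets and leaving out probe sets ending in _x_at or _s_at. Adding 50 cannot change a sign, and no signal of these genes was below 100. For the 5 genes with 1 probe set, only quantile normalization and centring could change the sign. S100a4 stayed between 0.56 and 0.59, S100a10 between 0.32 and 0.35, and S100a1 between -0.26 and -0.19. S100a6 (-0.06 to -0.03) and S100a13 (0.02 to 0.05) were so near level that their sign carries little. Of the 102 alternative values, 99 were ratios within the spread of the reported ones or unchanged counts. Many of these could not have differed, for the reasons given above. With no signal minimum, 1 gene, S100b, was at least 2-fold lower in place of 0. Its log2 ratio of -1.52 became -0.74 with 50 added and 0.00 with signals below 100 set to 100, so its size depends on how low signals are treated. No paired analysis was possible because each diet has 1 array, and no array could be left out. How far signals near background measure S100b, and what varies between mice, were not tested.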

Other observations

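The stretch of chromosome 3 between S100a9 and S100a11 holds genes of skin barrier formation. RefSeq lists 56 protein-coding genes there, of which 28 had a reading and 2 reached a signal of 300. These 2, named after their values were seen, were the cornified envelope precursors Sprr1a (662.1 and 895.9, control array first) and Sprr2f (497.4 and 236.0), with log2 ratios of 0.44 and -1.08. S100-fused genes of the same region, whose proteins carry an S100 domain at one end, were below 100 on both arrays: Flg had 5.3 and 0.2, Hrnr 0.1 and 0.4, Rptn 8.7 and 18.3, and Tchh 22.9 and 15.1. S100g, the calcium-binding protein of intestine and uterus, had 0.4 and 0.5.

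Neutrophil markers outside the S100 family were split by signal. Of 10 neutrophil markers with a reading, 7 were below 100 on both arrays, among them Elane (21.4 and 3.5), Ngp (14.4 and 16.6) and Camp (18.2 and 0.8), which were named after their values were seen. The other 3 were above it. Mmp9, also named after its values were seen, had 231.1 and 280.5. Lcn2 (6587.3 and 7501.0) and Ltf (1291.2 and 200.7) reached 300, and these are also made by mammary epithelium.

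T and B lymphocyte markers were likewise low, with 10 of 12 below 100 on both arrays. Endothelial markers had a median log2 ratio of -0.78 and myoepithelial markers one of -0.12. Squamous markers had a median of 0.26 over 5 genes and reference genes one of 0.01 over 10. None of these medians was as low as those of the adipocyte and muscle lists.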
